A study of Mus musculus with 30 samples.

Results

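The comparison described here sets mouse embryonic stem cells (mESC) that lack both Zfp57 and Gzf1 against mESC that lack Zfp57 alone, at the IG-CGI, a CpG island of the intergenic control region of the imprinted Dlk1-Dio3 domain. It rests on 2 of the 30 libraries of the series, 1 per genotype, chosen by their library names. Both came from the line labelled RGM, carried the reporter of that name and were read on the same reporter amplicon reference, so the Zfp57 knockout is shared and loss of Gzf1 is the labelled difference. The question is whether taking away Gzf1 changes the little methylation that is left on this island once Zfp57 is gone. How the knockouts were made, and whether each line is 1 clone, is not stated in the sources used.

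An imprinted domain is expressed from 1 parental copy only, and its control region carries DNA methylation on one copy. In the Dlk1-Dio3 domain the methylated copy of the intergenic region is the paternal one. Zfp57 (gene on chromosome 17, 37001163 to 37010729 of mm10) is a zinc finger protein that binds a methylated motif at imprinting control regions and recruits KAP1 and its partners, which keep the methylation in place through cell division. Gzf1 (chromosome 2, 148679384 to 148692949) is also a zinc finger protein, and the title of the series describes its binding and that of Zfp57 as reciprocal and dependent on methylation. The domain lies on chromosome 12, and its intergenic region is between Dlk1 (109452485 to 109463336), a gene expressed from the paternal copy, and Meg3 (109540996 to 109571729), a non-coding RNA gene expressed from the maternal copy. RGM reporters carry a small imprinted promoter whose activity follows the methylation of the sequence placed beside it. The labels do not say where in the genome the reporter copy of the IG-CGI lies, and it was not placed at genome coordinates here. Amplicon reads do not measure expression, so the genotypes rest on the labels.

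Bisulfite turns unmethylated cytosine into uracil, so a cytosine that is still read as cytosine at a CpG counts as methylated. Each deposited call is a Z (methylated) or a z (unmethylated) at 1 CpG of 1 read. The Zfp57 knockout library held 163 reads and 3706 calls at the amplicon's CpGs, and the double knockout library 351 reads and 7487 calls. Wild-type cells of the same reporter line gave 182 reads. The amplicon has 28 CpGs, named here by their position in bases on its reference, from CpG 39 to CpG 259, with gaps of 2 to 24 bases between neighbours. The submitters' file naming puts both knockout libraries in 1 sequencing order and the wild-type reporter library in another. With 1 library per side there is no replicate error. All intervals and tests below count reads, compare these libraries and not the genotypes, and cover counting error only: the reads carry no molecular identifiers, so several of them can be PCR copies of 1 molecule.

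Few calls were methylated in either knockout library. The mean level over the 28 CpGs, each weighted equally, was 5.22% without Zfp57 (95% interval 3.76 to 6.67) and 3.00% without both proteins (2.51 to 3.50). The difference of these means was -2.21 points (95% interval from the variance over whole reads -3.75 to -0.67), so the double knockout lay below the Zfp57 knockout. In reads with calls at all 28 CpGs the interval included 0 (-2.04 points, -4.28 to 0.19). In the wild-type reporter library the mean was 49.2% (41.9 to 56.5). At 28 of 28 CpGs the intervals of both knockout libraries lay wholly below that of the wild-type library.

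The most methylated CpG was the same in both libraries. CpG 43 had the highest level in each, with 28 of 155 calls methylated without Zfp57 (18.1%, Wilson interval 12.8 to 24.9) and 30 of 343 without both (8.75%, 6.20 to 12.2). Its neighbours in the sequence were next in the Zfp57 knockout. CpG 56 had 11.4% of 158 calls there and 4.94% of 344 calls in the double knockout. CpG 39 had 9.49% of 158 and 4.36% of 344 calls. At the other end, CpG 247 was at 0 of 82 calls in the Zfp57 knockout, which allows up to 3.66%, and at 0.758% of 132 calls in the double knockout. CpG 259 had 1.25% and 0.775%. CpG 238 had 2.44% in the Zfp57 knockout and 4.35% in the double knockout, close to the 4.36% of CpG 39 there. Of the 28 CpGs, 12 had a level of 5% or more in the Zfp57 knockout and 4 in the double knockout, and 3 had it in both. Across the 28 CpGs the 2 sets of levels had a Pearson r of 0.65 and a Spearman rho of 0.53. This is a description only, because neighbouring CpGs share reads and both libraries share primers and reference.

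**Figure D1:**
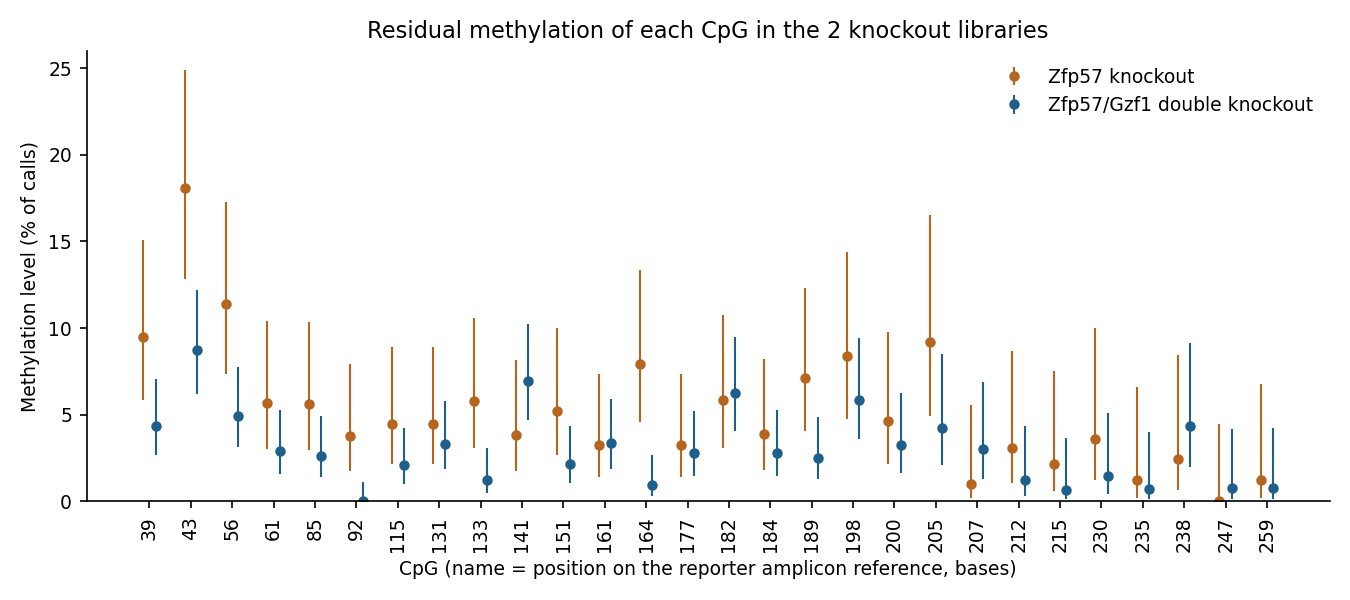
Methylation level (percent of calls) of each of the 28 CpGs, along the amplicon, in the Zfp57 knockout (brown) and the Zfp57/Gzf1 double knockout (blue), with 95% Wilson intervals. CpG 43 is highest in both, at 18.1% and 8.75%, and CpG 247 and CpG 259 are under 2% in both.

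Of the 28 CpGs tested, 4 were lower in the double knockout and 0 were higher at an adjusted p under 0.05 (Fisher's exact test, two-sided, adjusted over all 28 by Benjamini-Hochberg). That is 14.3% of the CpGs tested. By value 22 were lower and 6 higher. The 4 called CpGs were spread over the first 17 of the amplicon and did not neighbour each other.

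CpG 164 had the smallest p. It went from 12 of 151 methylated calls (7.95%, 4.60 to 13.4) to 3 of 324 (0.926%, 0.315 to 2.69), a difference of -7.02 points (Newcombe interval -12.5 to -3.24, adjusted p = 0.00377 by Fisher's exact test). By level 5 CpGs stood above it in the Zfp57 knockout (CpGs 39, 43, 56, 198 and 205), and 5 stood below it in the double knockout. CpG 92 had 6 of 160 methylated calls without Zfp57 (3.75%) and 0 of 345 without both, which allows up to 0.87% (adjusted p = 0.0133 by Fisher's exact test). It was the only CpG of the double knockout with no methylated call. CpG 43 had the largest fall in points, -9.32 (interval -16.6 to -3.02, adjusted p = 0.0366 by Fisher's exact test), and remained the most methylated CpG of the library. CpG 133 went from 9 of 156 (5.77%) to 4 of 332 (1.20%), with an adjusted p of 0.041. At 2 bases from it, CpG 131 had 4.46% and 3.30% and was not called (adjusted p = 0.81 by Fisher's exact test). CpG 43 and CpG 133 lost their calls with Holm adjustment and with identical call patterns counted once, and all 4 CpGs lost theirs in reads with calls at 90% of the CpGs or more.

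The other CpGs at the start of the amplicon had lower values in the double knockout without passing the adjustment. CpG 56 differed by -6.45 points (interval -12.6 to -1.50) and CpG 39 by -5.13 points (-11.0 to -0.58), with adjusted p of 0.0732 and 0.162 by Fisher's exact test. Without adjustment 7 CpGs had a p under 0.05 by Fisher's exact test, 25.0% of those tested, and each of the 7 had the lower value in the double knockout.

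CpG 141 had the largest difference in the other direction. It was methylated in 6 of 156 calls without Zfp57 (3.85%, 1.77 to 8.14) and in 23 of 330 calls without both (6.97%, 4.69 to 10.2), a difference of 3.12 points (interval -1.74 to 7.0, adjusted p = 0.474 by Fisher's exact test). CpG 182 was level, with 5.84% and 6.25%. In the double knockout these 2 CpGs ranked directly after CpG 43.

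**Figure D2:**
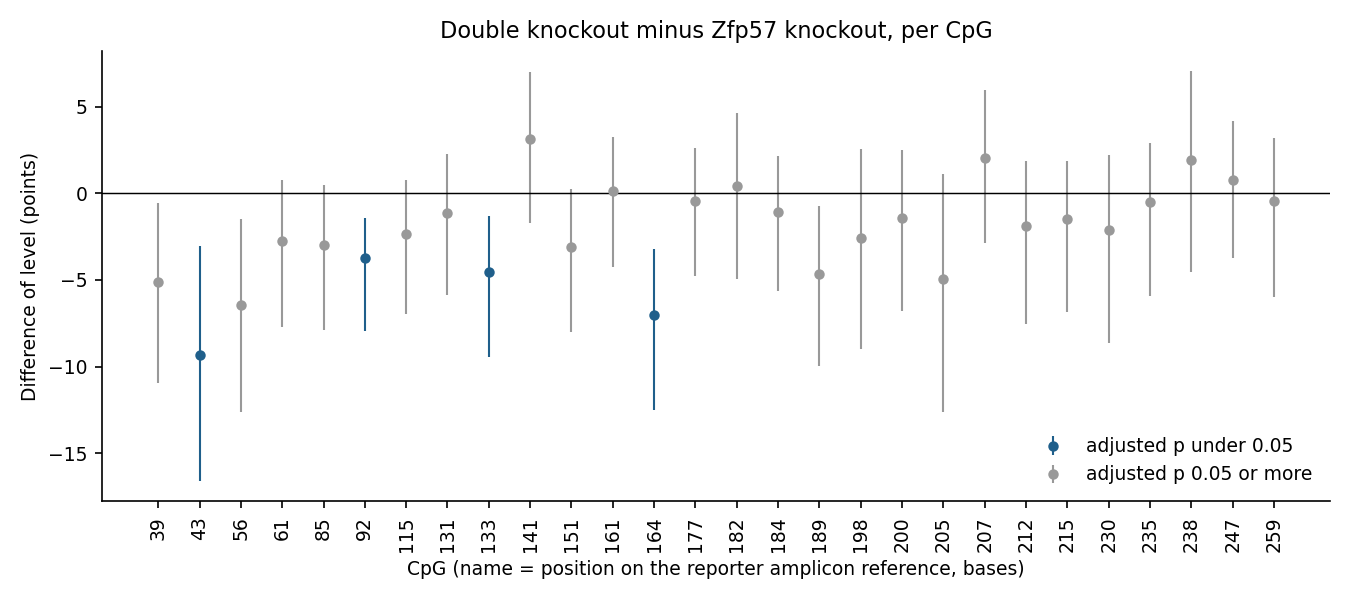
Difference of methylation level (double knockout minus Zfp57 knockout, in points) at each CpG along the amplicon, with 95% Newcombe intervals. The 4 CpGs with an adjusted p under 0.05 (blue) are CpG 43, CpG 92, CpG 133 and CpG 164, all below 0, and the largest difference above 0 is 3.12 points at CpG 141.

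By value the difference was greater, in points, where the Zfp57 knockout kept more methylation. The Zfp57 knockout level is itself part of this difference, so such a link can arise without any effect of position. No conclusion is drawn from it. The amplicon was divided, after its coverage had been seen, at the places where many reads stop. Over the 6 CpGs from 39 to 92 the mean level was 9.0% without Zfp57 and 3.93% without both, a difference of -5.07 points (95% interval -8.05 to -2.09). Over the 11 CpGs from 115 to 189 it was 5.01% and 3.12%, a difference of -1.89 points (-3.88 to 0.10). The 6 CpGs from 198 to 215 had 4.75% and 3.04% (-1.71 points, -3.82 to 0.39). Over the last 5, from 230 to 259, both libraries were near the same low level, at 1.70% and 1.61% (-0.09 points, -1.75 to 1.57). Whether the difference itself changes along the amplicon was not tested. In the double knockout the intervals of the first 2 stretches overlapped (2.88 to 4.97 and 2.47 to 3.77). The wild-type reporter library had 50.8%, 41.4%, 59.0% and 52.8% over the same 4 stretches, but its reads differed by where their calls stopped. Of its calls on the 41 reads that ended by CpG 92, 77.2% were methylated. On the 43 reads that ended at CpGs 115 to 189 it was 7.85%. Its levels along the amplicon therefore also reflect which reads reach each stretch. The knockout reads also differed by where their calls stopped. Among reads ending at CpGs 115 to 189, a Z call was on 5 of 27 in the Zfp57 knockout (18.5%). In the double knockout it was on 30 of 81 (37.0%). Among those ending at CpGs 198 to 215 the counts were 29 of 47 (61.7%) and 55 of 118 (46.6%). At CpGs 230 to 259 they were 33 of 84 (39.3%) and 57 of 139 (41.0%). Some of these classes are small, and the libraries were not tested within them. The knockout means over the stretches thus also depend on which reads reach them, and this was not tested.

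Read by read, the libraries had nearly the same share of reads with no methylation and differed in how many methylated CpGs the other reads held. Of the Zfp57 knockout reads 95 of 163 had 0 Z calls (58.3%, Wilson interval 50.6 to 65.6), and of the double knockout reads 207 of 351 (59.0%, 53.8 to 64.0). The difference was 0.692 points (Newcombe interval -8.27 to 9.86), with p = 0.923 by two-sided Fisher's exact test. An interval of this width leaves room for a difference of several points either way. The near-equal shares also pool reads that stop at different places. For these the libraries differed by value in both directions, without a test, as given above.

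Reads with exactly 1 Z call were 26 of 163 in the Zfp57 knockout (15.95%, 11.1 to 22.3) and 87 of 351 in the double knockout (24.8%, 20.6 to 29.6). The share was 8.84 points higher in the double knockout (interval 1.17 to 15.6, adjusted p = 0.044 by Fisher's exact test, adjusted over the 3 classes of reads). Reads with 2 or more Z calls went the other way, with 42 of 163 (25.8%, 19.7 to 33.0) and 57 of 351 (16.2%, 12.7 to 20.5). That share was 9.53 points lower in the double knockout (interval -17.5 to -2.11, adjusted p = 0.044 by Fisher's exact test).

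Methylated calls therefore averaged 1.28 per read (SE 0.183) without Zfp57 and 0.689 (SE 0.059) without both, a difference of -0.593 (95% interval -0.970 to -0.215). Over the reads that had any Z call the averages were 3.07 and 1.68. Reads of the Zfp57 knockout were called at slightly more CpGs, 22.7 on average against 21.3.

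Reads with several Z calls were a smaller share of the double knockout library at each bound looked at. These bounds were chosen after the values were seen and so are given without a test. Reads with 3 or more Z calls were 17.8% and 5.70%, a difference of -12.1 points (Newcombe interval -19.0 to -6.20), and reads with 4 or more were 13.5% and 3.13%, a difference of -10.4 points (-16.6 to -5.35). A bound of 5 Z calls was reached by 16 of 163 reads of the Zfp57 knockout (9.82%, Wilson interval 6.13 to 15.4) and by 5 of 351 reads of the double knockout (1.42%, 0.61 to 3.29). These few reads held 112 of the 209 Z calls of the Zfp57 knockout (53.6%) and 30 of the 242 Z calls of the double knockout (12.4%). Reads with a single Z call held 12.4% of the Z calls in the Zfp57 knockout and 36.0% in the double knockout. These shares depend on the bound. With the same part of the reads taken in each library, the 10% of reads with the most Z calls, they held 55.5% of the Z calls in the Zfp57 knockout (17 reads) and 46.7% in the double knockout (36 reads), a smaller contrast.

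**Figure D3:**
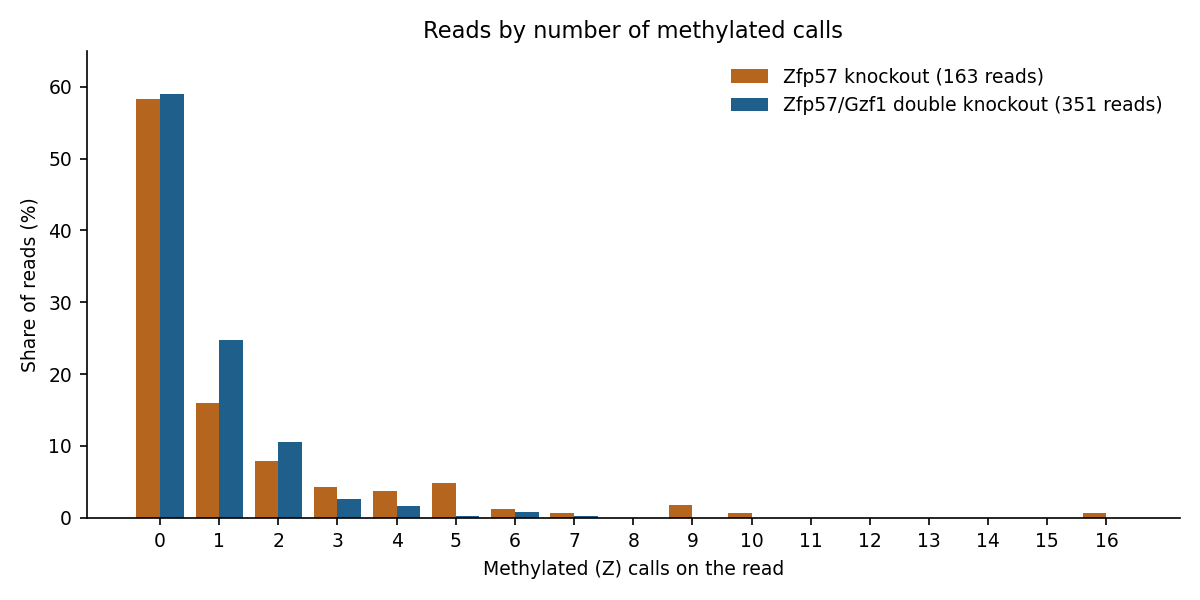
Share of reads (percent) by the number of methylated (Z) calls on the read, in the Zfp57 knockout (brown, 163 reads) and the double knockout (blue, 351 reads). The bars at 0 are nearly equal, at 58.3% and 59.0%, the double knockout is higher at 1, and only the Zfp57 knockout reaches beyond 7 Z calls, up to 16.

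The call patterns of the most methylated reads show what such reads looked like. They are written below as 1 letter per CpG in amplicon order, with a Z for methylated, a z for unmethylated and a point for a CpG without a call, for 3 of the most methylated reads in each library (of reads with equal numbers of Z calls, the first by read number).
Zfp57 knockout, 16 Z calls: zZzZZZZZZZZZZZZzZZzZzzzzzzzz
Zfp57 knockout, 10 Z calls: zZzzzzzZzZZz.ZZZzZZzzZzzzzzz
Zfp57 knockout, 9 Z calls: ...zZZzzzzzzZzZZZZZzzzzZzzzz
Double knockout, 7 Z calls: zZZZzzzzzZzZzzzZzzZ.........
Double knockout, 6 Z calls: zzzzzzzzZZZzzzzZZZ..........
Double knockout, 6 Z calls: zZZzzzzzzzzzzZZzzzzZzZzzzzzz

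The first of these reads had 12 methylated CpGs in a row, from CpG 61 to CpG 182, and none after CpG 205. The longest such row in the double knockout was 3 CpGs. At least 2 neighbouring methylated CpGs were found on 29 of 163 reads of the Zfp57 knockout (17.8%) and on 22 of 351 reads of the double knockout (6.27%). Among the reads with 2 or more Z calls, 69.0% of 42 and 38.6% of 57 had such neighbours. More than 50% of the calls were methylated on 2 reads of the Zfp57 knockout and on 0 of 351 reads of the double knockout, which allows up to 0.855%. Of these 2 reads, 1 is the read with 16 Z calls above, and the other had calls at 4 CpGs only.

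At the start of the amplicon, CpG 39, CpG 43 and CpG 56 were all methylated on 4 reads of the Zfp57 knockout and on 0 reads of the double knockout. At least 1 of these 3 CpGs was methylated on 41 of 155 fully called reads (26.5%) and on 46 of 340 (13.5%). In the double knockout CpG 141 was the only methylated CpG on 11 of the 23 reads that carried it and CpG 131 on 8 of 11. In the Zfp57 knockout these were 1 of 6 and 0 of 7, and reads with CpG 131 methylated had 7 other Z calls on average, against 0.36 in the double knockout. The Dnmt1 knockout library described below had 3.71% of its calls methylated at CpG 131, against 3.30% in the double knockout.

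Repeated patterns bear on how many molecules these reads stand for. The 68 reads with a Z call in the Zfp57 knockout had 60 different patterns, and the 144 in the double knockout had 113. No pattern with methylation was seen on more than 4 reads in either library. All reads with 5 or more Z calls had patterns of their own, 16 in the Zfp57 knockout and 5 in the double knockout. Reads of 1 molecule can still differ by sequencing errors or by where the calls stop.

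The calls of many reads stopped before the end of the amplicon. At CpG 189, 94.5% of the Zfp57 knockout reads and 91.5% of the double knockout reads had a call, and at CpG 259 only 49.1% and 36.8%. Calls per CpG ranged from 80 to 160 and from 129 to 345. Reads called at every CpG numbered 73 and 122. In these, the shares with 0 Z calls were 61.6% and 60.7%, and the shares with 2 or more were 19.2% and 15.6%, a difference that did not pass Fisher's exact test (p = 0.557). The average of Z calls per read was 1.22 and 0.648 there, a difference of -0.572 (95% interval -1.20 to 0.05), and 9 of 73 reads (12.3%) against 2 of 122 (1.64%) had 5 or more. No CpG was called in these reads by Fisher's exact test after adjustment, with 2 at an unadjusted p under 0.05.

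**Figure D4:**
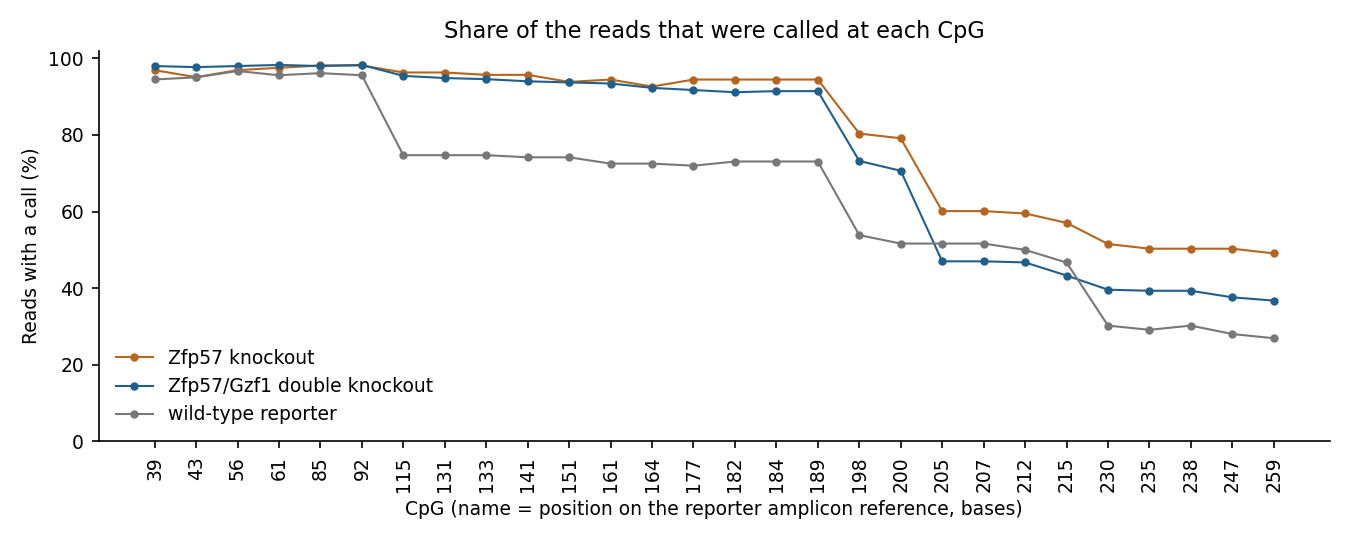
Share of reads (percent) with a call at each CpG along the amplicon, in the Zfp57 knockout (brown), the double knockout (blue) and the wild-type reporter library (grey). Coverage drops after CpG 189 in both knockouts, to 49.1% and 36.8% at CpG 259, and in the wild-type library also after CpG 92.

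To set all libraries on one scale, reads called at each of the first 17 CpGs, from 39 to 189, were compared over those CpGs only. The same CpGs could be read on the endogenous IG-CGI reference, where 26 of the 28 have the same spacing at an offset of 16 bases. Over this window 92 of 143 reads (64.3%, Wilson interval 56.2 to 71.7) had 0 Z calls without Zfp57 and 190 of 296 (64.2%, 58.6 to 69.4) without both. Reads with 1 Z call were 16.1% and 21.3%, and Fisher's exact test gave p = 0.248. Reads with 2 or more Z calls were 19.6% and 14.5%, a difference of -5.05 points (Newcombe interval -13.1 to 2.17) that did not pass Fisher's exact test (p = 0.213), so these 2 contrasts depended on the CpGs and reads counted. Reads with 5 or more were 10 of 143 (6.99%, 3.84 to 12.4) and 3 of 296 (1.01%, 0.35 to 2.94). Z calls per read were 0.993 and 0.588, a difference of -0.405 (95% interval -0.747 to -0.064).

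Libraries with little or no methylation put a level under these values. Dnmt1 is the enzyme that copies methylation after replication. In V6.5 mESC without it 84.6% of 662 reads had 0 Z calls over the window, 13.6% had 1 and 1.81% had 2 or more. The average was 0.218 Z calls per read. Of these reads 2 were methylated at all 17 CpGs, and they held 34 of the 144 Z calls of the 662 reads over the window (23.6%). Wild-type oocytes, which hold only maternal copies, had 94.2% of 985 reads with 0 Z calls and 0.059 per read. Both knockouts of the reporter line lay above these, at 0.993 and 0.588 Z calls per read. Of the 26 CpGs that could be matched, the Wilson interval of the level lay wholly above that of the Dnmt1 knockout at 16 in the Zfp57 knockout and at 10 in the double knockout, and at 8 in both. By value 25 of the 26 were above it in the Zfp57 knockout and 20 in the double knockout, so not every CpG exceeded this level. CpG 43 was at 18.1% and 8.75% against 1.06% in the Dnmt1 knockout. CpG 164 was above it only in the Zfp57 knockout, with 0.926% in the double knockout and 1.24% without Dnmt1. CpG 131 was the highest CpG of the Dnmt1 knockout, at 3.71% (Wilson interval 2.58 to 5.31). The Zfp57 knockout had 4.46% there and the double knockout 3.30%, so neither rose clearly above it. At CpG 141 the interval lay wholly above that of the Dnmt1 knockout only in the double knockout, with 6.97% against 1.75%. The Zfp57 knockout was also higher by value there, at 3.85%, but its interval overlapped that of the Dnmt1 knockout. These comparison libraries came from other sequencing orders and were read on another reference, so their levels give a scale and not a measured conversion rate of the reporter libraries.

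**Figure D5:**
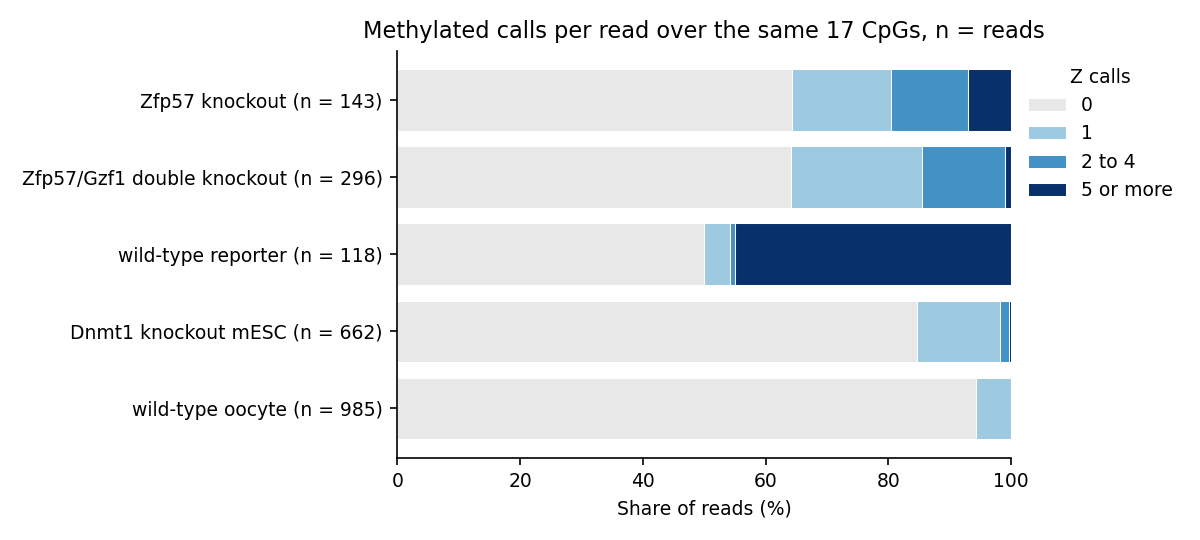
Share of reads (percent) with 0, 1, 2 to 4 and 5 or more methylated calls over the same 17 CpGs in 5 libraries. Only reads called at all of them are counted (n). Reads whose calls stopped earlier are left out, and over all wild-type reporter reads the share with 0 Z calls was 35.7%. Reads with 0 Z calls make up 64.3% and 64.2% in the knockouts of the reporter line, 50% in the wild-type reporter library, 84.6% without Dnmt1 and 94.2% in wild-type oocytes, and reads with 5 or more make up 6.99% and 1.01% in the 2 knockouts.

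The wild-type reporter reads had another form altogether. Over the window 59 of 118 had 0 Z calls and 53 of 118 (44.9%) had 5 or more, and only 1 read lay between 2 and 4. The window leaves out reads whose calls stopped earlier, among them the 41 that ended by CpG 92. Over all 182 wild-type reads and all CpGs, 35.7% had 0 Z calls and 56.0% had 5 or more. The near-even split over the window thus depends on which reads are kept. In the knockouts, reads with 2 to 4 Z calls over the window were 18 of 143 (12.6%) and 40 of 296 (13.5%). Across the 28 CpGs the levels of the wild-type library had a Pearson r of 0.06 with those of the Zfp57 knockout and 0.14 with those of the double knockout, again as a description over CpGs that share reads.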

How the data were processed

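Per the labels' protocols, DNA was bisulfite-converted (EZ DNA Methylation-Lightning), amplified in a pair of nested PCR rounds and read on Oxford Nanopore by Plasmidsaurus. The deposited files give a Z or z call per read and CpG of the original top strand. Per the file headers the Bismark methylation extractor 0.22.3 wrote them, and the submitters' processing notes list Bismark 0.24.2 and mm10. The alignment and read filtering settings were not given in the sources used here. In the read names, the running number reached 4999 and 4982 in the knockout libraries, and reads with calls were 3.26% and 7.05% of it. The share was 3.64% in the wild-type reporter library, 33.6% in the Dnmt1 knockout and 32.6% in the oocytes. The reads kept may thus be selected differently between these libraries, and how this bears on the levels was not tested. Conversion at cytosines outside CpGs was not analysed here, and no amplicon sequence was used.

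CpGs of the amplicon are positions called in 10% or more of a library's reads on the reporter reference. In each knockout library 1 call lay elsewhere and was left out. A level is the percentage of calls that are methylated, at 10 or more calls. Tests are Fisher's exact tests, two-sided, adjusted by Benjamini-Hochberg. A minimum difference of 20 points, used in earlier work on these files, exceeds every level of the Zfp57 knockout, so none was set. Intervals at 95% are Wilson for shares, Newcombe for their differences, and for means from the linearised variance over whole reads. For a count of 0 the limit is 3 counts. Named CpGs are those called, the largest difference each way, the highest and lowest of each library and the first and last 3; CpGs 131, 182, 198 and 205 were named after their values were seen. Comparison, CpGs and tests were chosen with earlier results of these data known. The tests were first run on simulated reads in which some CpGs were raised by more than any difference found here. That run does not show how the tests perform for falls of the size found. Software was Python 3.11.15, scipy 1.17.1, statsmodels 0.14.6 and pandas 2.3.3. Gene positions come from RefSeq, GRCm38.p6, the assembly of mm10.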

Additional observations from a re-analysis of the deposited data

How the results depend on the processing

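The mean level was lower by value in the double knockout under every alternative run, by -4.46 to -1.96 points. Its 95% interval included 0 in reads with calls at 90% of the CpGs (-4.26 to 0.11) and at all 28 (-4.28 to 0.19). The widest value, -4.46 points, came from counting identical call patterns once, which removes mostly unmethylated reads. That also moved the difference of Z calls per read to -1.12. The number of called CpGs depended on the rules. It was 2 with identical patterns counted once, 2 with Holm adjustment, 2 with a minimum difference of 5 points and 0 with one of 20 points. It was 0 when only reads with calls at 90% of the CpGs or all 28 were kept, where fewer reads are tested (the second of these, the window of 17 CpGs and the bounds of 3, 4 and 5 Z calls were added after seeing the data). All 4 CpGs lost their calls in those 2 sets of reads and with the minimum of 20 points, CpG 43 and CpG 133 also with Holm adjustment and identical patterns counted once, and CpG 92 and CpG 133 with the minimum of 5 points. The share of reads with 2 or more Z calls differed by -3.09 points in reads with calls at 90% of the CpGs, -3.60 in those with all 28 and -5.05 in the window, and passed the test in none of these. The share with 0 Z calls changed sign around 0, to -0.049 points (50% or more of the CpGs), -2.31 (90% or more), -1.98 (identical patterns once), -0.905 (without the first 3 and last 3 CpGs), -0.988 (all 28) and -0.146 (window). Coverage minimums of 5 and 30 calls could not change the mean level or the called CpGs. Every CpG had at least 80 calls in the Zfp57 knockout and 129 in the double knockout, so none was left out. No paired analysis was possible because each side has 1 library and its replicate number is only a name.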
